A study of Mus musculus with 9 samples.

Results

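The mouse Toll-like receptor genes Tlr1 to Tlr9 and Tlr13 were taken by their symbols from a deposited table of 56980 genes, which gave 10 of 10 members, and all 10 passed the filter on low counts and were tested. RNA sequencing had been run on bone of 5 aged mice, 20 months old, and 4 young mice, 3 months old. All were wild type C57BL/6, stated to be female and without treatment, and each was labelled a biological replicate. The labels named bone marrow as the tissue, while the RNA was extracted from trabecular bone after mechanical homogenisation, so the libraries held RNA of marrow and bone cells together. The series concerned sensory innervation of ageing bone, and the comparison here asked how receptor transcripts differed between the ages.

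Toll-like receptors are membrane proteins of innate immunity that recognise molecular patterns of microbes. Tlr1, Tlr2, Tlr4, Tlr5 and Tlr6 act at the cell surface and bind lipopeptides, lipopolysaccharide or flagellin, while Tlr3, Tlr7, Tlr8, Tlr9 and Tlr13 act in endosomes on nucleic acids. Most signal through the adaptor MyD88 to NF-kB and interferon regulatory factors, and in marrow they are found on monocytes, macrophages, neutrophils, B cells and plasmacytoid dendritic cells.

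The libraries held 19804883 to 23548594 estimated counts in the aged group and 20120991 to 23336827 in the young group. Aged 3, aged 4 and young 4 stood apart: 6.13% to 7.30% of their counts came from ribosomal protein genes, against 3.17% to 3.43% in the other 6 libraries. These 3 are called the 3-library set and the others the 6-library set. Receptor values are given per library, and means of TPM and of pathway genes pool both sets. Markers of monocytes, neutrophils, B cells, red cell precursors and osteoblasts were detected in all 9 libraries, with none of those lists' genes at 0. Xist, which coats the silenced X of female cells, was counted 7909 to 21724 times in aged 1 to 4 and 9 times in aged 5, against 1 to 8 times in young libraries. The Y-linked gene Ddx3y had 0 counts in aged 1 to 4 and 1640 in aged 5, against 888 to 1721 in young libraries. These values went against the stated sex in aged 5 and in the 4 libraries labelled young, so age and sex chromosome transcripts cannot be told apart except through aged 5. Tlr7, Tlr8 and Tlr13 lie on the X chromosome.

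Sequences show why 1 pair of receptors is counted with care, and what stands before the start of 3 genes that the results turn on. Tlr1 and Tlr6 are neighbouring genes on chromosome 5 with near-identical stretches. Of all pairs of members, only this pair shared any 50-base coding sequence, 454 windows in all. Their longest identical coding run has 229 bases (GENCODE M21 transcripts), at coding bases 1468 to 1696 of 2388 in Tlr1 and 1507 to 1735 of 2421 in Tlr6. It is given from 5′ to 3′ with no capitals, since every base is shared.
Tlr1 and Tlr6 shared coding run: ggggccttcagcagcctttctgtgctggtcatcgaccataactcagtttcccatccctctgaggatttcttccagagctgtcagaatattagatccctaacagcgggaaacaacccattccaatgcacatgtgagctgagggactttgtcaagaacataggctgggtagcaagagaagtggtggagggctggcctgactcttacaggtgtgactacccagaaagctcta
Promoters, from 250 bases before to 50 after a RefSeq start (GRCm38.p6), were available for 8 of the 10 genes. The promoters of Tlr1, Tlr8 and Tlr9 follow in the direction of transcription. Tlr1 was the only receptor whose ages did not overlap over all libraries at the scaling used in the tests below. Tlr8 and Tlr9 were the receptors that differed most between the library sets. Capitals mark the core letters GAGGAA, or their reverse complement, of PU.1, a transcription factor of myeloid and B cells.
Tlr1 promoter, chr5:64933509-64933808, minus strand: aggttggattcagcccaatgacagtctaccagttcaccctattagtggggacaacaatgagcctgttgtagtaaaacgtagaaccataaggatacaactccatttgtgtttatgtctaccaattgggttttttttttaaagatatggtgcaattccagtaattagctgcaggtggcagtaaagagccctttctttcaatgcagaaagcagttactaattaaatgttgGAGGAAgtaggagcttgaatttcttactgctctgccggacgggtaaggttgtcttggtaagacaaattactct
Tlr8 promoter, chrX:167264280-167264579, minus strand: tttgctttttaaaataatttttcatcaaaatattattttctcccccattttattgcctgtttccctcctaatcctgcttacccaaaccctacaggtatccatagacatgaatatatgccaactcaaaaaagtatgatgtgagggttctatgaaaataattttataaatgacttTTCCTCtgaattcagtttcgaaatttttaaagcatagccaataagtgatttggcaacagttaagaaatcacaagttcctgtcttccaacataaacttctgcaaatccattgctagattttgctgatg
Tlr9 promoter, chr9:106222348-106222647, plus strand: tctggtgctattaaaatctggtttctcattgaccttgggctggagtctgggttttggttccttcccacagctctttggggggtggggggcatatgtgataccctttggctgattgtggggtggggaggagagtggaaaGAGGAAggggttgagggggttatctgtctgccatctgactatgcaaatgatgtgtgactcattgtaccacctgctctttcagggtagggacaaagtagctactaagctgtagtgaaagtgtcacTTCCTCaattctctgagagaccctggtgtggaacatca
The core letters occurred 1 time each in the promoters of Tlr1, Tlr8 and Tlr13 and 2 times in that of Tlr9, on either strand. Tlr1 and Tlr6 have 2 promoters each in the table, and the second of Tlr1 held no match. Thus 4 of the 10 promoters of these genes held the letters, beside 28.28% of 32851 promoters. The letters TTGCNNAA, a form of the C/EBP site, were in 4 of the 10 (of Tlr3, Tlr6, Tlr8 and Tlr13) and in 10.8% of all promoters. A loose NF-kB pattern, GGG and CC with 5 bases between, was in 4 of the 10 (of Tlr2, Tlr3, Tlr5 and Tlr6) and in 50.79% of all. An interferon response pattern, GAAA repeated after 2 bases, was in 1, of Tlr6, and in 3.443% of all. No match of 1 motif overlapped a match of another in these promoters. A match describes letters only.

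With age, 9 of the 10 receptors had a higher mean level in aged bone and 1, Tlr5, a lower one, but none passed the test over all genes. Over the 10, the log2 fold change (aged over young) had a median of 0.49, beside 0.03 over all 16576 genes tested, of which 53.5% lay above 0. The quasi-likelihood test of edgeR, with age group as the only term and a threshold of 0.05 on the adjusted p, called 0 receptors and 0% of all genes. Its lowest adjusted p for any gene was 0.255, and for any receptor 0.399. Before adjustment, 2 receptors (Tlr1 and Tlr3) had a p under 0.05 on the higher side, beside 4.15% of all genes, and over both directions 1457 genes did. DESeq2 called 311 genes (1.03% of those with a p-value), none of them a receptor, and limma-voom called 0. With the library set as a second term the median of the receptors was 0.59, beside 0.01 over all genes, with 9 receptors and 51.1% of genes above 0. That fit called 0 receptors and 1.92% of genes, 0.615% higher and 1.31% lower. In that fit 6 receptors (Tlr1, Tlr3, Tlr4, Tlr6, Tlr8 and Tlr13) had an unadjusted p under 0.05 on the higher side, beside 8.59% of all genes. In bulk bone, fewer cells of a type and less RNA per cell cannot be told apart.

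**Figure D1:**
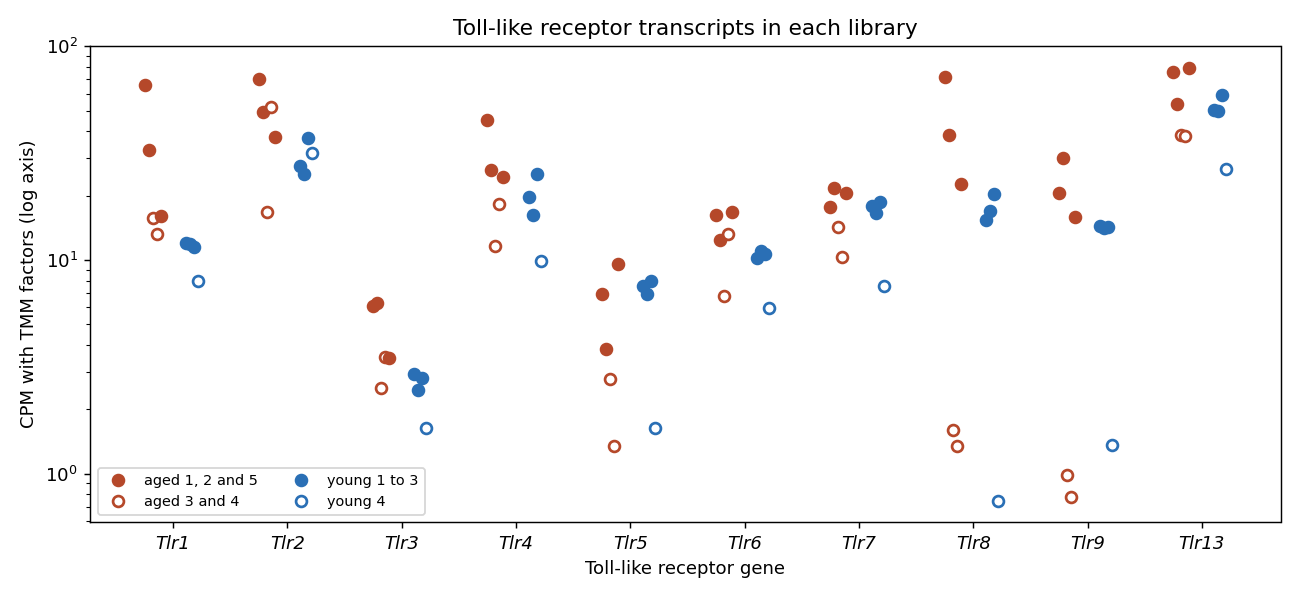
CPM with TMM factors (log axis) of the 10 receptor genes in each library, aged left of young. Filled points are the 6-library set, open points aged 3, aged 4 and young 4, in which Tlr8 and Tlr9 lie between 0.747 and 1.59 CPM.

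Among the surface receptors, Tlr1 had the largest age difference in the group-only fit, but not where libraries with Y-linked transcripts were set apart, as given below. Tlr1 (ENSMUSG00000044827, chromosome 5) pairs with Tlr2 to bind triacylated lipopeptides of bacteria. Its level, in CPM (counts scaled to the library total, with TMM factors), was 65.7, 32.8, 15.8, 13.3 and 16.1 in aged 1 to 5, against 11.98, 11.9, 11.5 and 7.94 in young 1 to 4. Each aged library lay above each young library, with aged 1 and aged 2 far above the other aged ones. It was the only receptor without overlap over all libraries at this scaling, 1 of 10, beside 1.67% of all genes. In the deposited TPM values Tlr1 overlapped between the ages. Aged 3 and aged 4 were at 3.55 and 3.79 TPM, against 6.54, 5.59 and 5.56 TPM in young 1 to 3. The means were 28.7 ± 22.1 CPM in aged and 10.8 ± 1.94 CPM in young libraries (SD, n = 5 and 4). The log2 fold change was 1.40 (SE 0.48, adjusted p = 0.399 by edgeR), and 1.44 with the library set term (SE 0.36, adjusted p = 0.0717 by edgeR). Without aged 1 it was 0.85. In the authors' deposited table it was 1.42, with an adjusted p of 0.134.

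Tlr6 (ENSMUSG00000051498), which pairs with Tlr2 for diacylated lipopeptides, was at 16.3, 12.4, 6.80, 13.3 and 16.8 CPM in aged 1 to 5, against 10.2, 11.0, 10.6 and 5.98 in young 1 to 4. Only aged 3 lay among the young libraries, and it was still above young 4 of its own set. The log2 fold change was 0.47 (SE 0.30, adjusted p = 0.813 by edgeR), and 0.58 with the set term (SE 0.21, adjusted p = 0.171 by edgeR). Reads of the shared run could be assigned to either gene. Tlr1 and Tlr6 were the only members with estimated counts that were not whole numbers (tolerance 0.001), in 8 of 9 libraries, while their sums came within 0.12 of whole numbers. Tlr1 made up 80.1%, 72.6%, 69.8%, 49.98% and 49.0% of the pair's counts in aged 1 to 5, and 54.0%, 52.1%, 52.1% and 57.0% in young 1 to 4. Aged 1 to 3 thus had a larger Tlr1 share than every young library, and aged 4 and aged 5 a smaller one. The sum of the pair does not depend on that split, and was 82.0, 45.1, 22.6, 26.6 and 32.9 CPM in aged libraries, against 22.2, 22.9, 22.2 and 13.9 CPM in young libraries. Aged 3 lay between the young values, so the sum overlapped. Its log2 fold change was 1.04 (SE 0.38, adjusted p = 0.436 by edgeR), and 1.12 with the set term (SE 0.25, adjusted p = 0.0540 by edgeR).

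Tlr2 (ENSMUSG00000027995, chromosome 3), the shared partner of both, was at 70.3, 49.5, 16.8, 52.1 and 37.9 CPM in aged 1 to 5, against 27.5, 25.4, 37.1 and 31.6 in young 1 to 4. Every aged library but aged 3 lay above every young library, and aged 3 was the lowest of all 9. The log2 fold change was 0.58 (SE 0.35, adjusted p = 0.777 by edgeR), and 0.60 with the set term (SE 0.33, adjusted p = 0.373 by edgeR). Tlr4 (ENSMUSG00000039005, chromosome 4), the receptor of lipopolysaccharide, was at 45.2, 26.5, 11.6, 18.2 and 24.3 CPM in aged 1 to 5, against 19.7, 16.2, 25.2 and 9.91 in young 1 to 4. Aged 1 and aged 2 were highest, and the groups overlapped. Its log2 fold change was 0.50 (SE 0.39, adjusted p = 0.912 by edgeR), and 0.63 with the set term (SE 0.23, adjusted p = 0.178 by edgeR). It was 0.19 without aged 1.

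Tlr5 (ENSMUSG00000079164, chromosome 1), the flagellin receptor, was the 1 member with a lower mean in aged bone. It was at 6.95, 3.82, 2.76, 1.35 and 9.60 CPM in aged 1 to 5, against 7.57, 6.96, 7.98 and 1.63 in young 1 to 4. The lowest values of both ages were those of the 3-library set, and aged 5 was the highest of all 9. On the log2 scale the fold change was −0.30 (SE 0.59, adjusted p = 1.00 by edgeR), and −0.02 with the set term (SE 0.32, adjusted p = 0.984 by edgeR).

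Among the endosomal receptors, Tlr8 had the largest age difference and the widest spread in the group-only fit. Tlr3 had a larger difference with limma-voom (0.75 against 0.36 for Tlr8) and without aged 1 (0.68 against 0.26). Tlr8 (ENSMUSG00000040522, X chromosome) is in humans a receptor of single-stranded RNA. It was at 72.1, 38.4, 1.59, 1.35 and 22.6 CPM in aged 1 to 5, against 15.4, 16.9, 20.4 and 0.747 in young 1 to 4. Within each library set every aged library lay above every young one, while over all libraries aged 3 and aged 4 were below young 1 to 3. The means were 27.2 ± 29.5 CPM in aged and 13.4 ± 8.68 CPM in young libraries (SD, n = 5 and 4), and the estimated counts ran from 26 to 1672 and from 11 to 487. On the log2 scale the fold change was 1.02 (SE 1.13, adjusted p = 0.992 by edgeR), and 1.27 with the set term (SE 0.32, adjusted p = 0.0725 by edgeR). 

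Tlr9 (ENSMUSG00000045322, chromosome 9), the receptor of unmethylated CpG DNA, was at 20.5, 30.2, 0.981, 0.779 and 15.8 CPM in aged 1 to 5, against 14.4, 14.2, 14.3 and 1.36 in young 1 to 4. Aged 1, aged 2 and aged 5 lay above young 1 to 3, but aged 3 and aged 4 lay below young 4. Its 15 to 678 estimated counts in aged and 20 to 378 in young libraries gave a log2 fold change of 0.30 (SE 1.00, adjusted p = 1.00 by edgeR), and 0.36 with the set term (SE 0.26, adjusted p = 0.528 by edgeR). The direction of Tlr9 turned in several alternatives, among them limma-voom (−0.39) and leaving out aged 2 (−0.22).

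Tlr7 (ENSMUSG00000044583), a receptor of single-stranded RNA and the neighbour of Tlr8 on the X chromosome, was at 17.6, 21.8, 14.3, 10.3 and 20.5 CPM in aged 1 to 5, against 17.98, 16.7, 18.6 and 7.54 in young 1 to 4. The groups overlapped, and the log2 fold change was 0.15 (SE 0.31, adjusted p = 1.00 by edgeR), and −0.07 without young 4. With the set term it was 0.32 (SE 0.16, adjusted p = 0.331 by edgeR). Tlr13 (ENSMUSG00000033777, X chromosome), which recognises bacterial ribosomal RNA, was at 76.1, 53.5, 38.5, 38.0 and 79.6 CPM in aged 1 to 5, against 50.4, 49.6, 59.3 and 26.8 in young 1 to 4. Aged 1 and aged 5 were highest and young 4 lowest, with overlap between the groups. On the log2 scale the fold change was 0.30 (SE 0.31, adjusted p = 0.985 by edgeR), and 0.43 with the set term (SE 0.14, adjusted p = 0.125 by edgeR). The group-only value was 0.11 without young 4, 0.15 without aged 5 and 0.17 without aged 1.

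Tlr3 (ENSMUSG00000031639, chromosome 8), the receptor of double-stranded RNA and the one member that signals through the adaptor TRIF alone, was at 6.08, 6.31, 2.51, 3.53 and 3.47 CPM in aged 1 to 5, against 2.93, 2.47, 2.81 and 1.63 in young 1 to 4. Aged 3 was the only aged library among the young ones. The means were 4.38 ± 1.71 CPM in aged and 2.46 ± 0.587 CPM in young libraries (SD, n = 5 and 4). The log2 fold change was 0.83 (SE 0.36, adjusted p = 0.545 by edgeR), and 0.93 with the set term (SE 0.26, adjusted p = 0.0920 by edgeR).

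**Figure D2:**
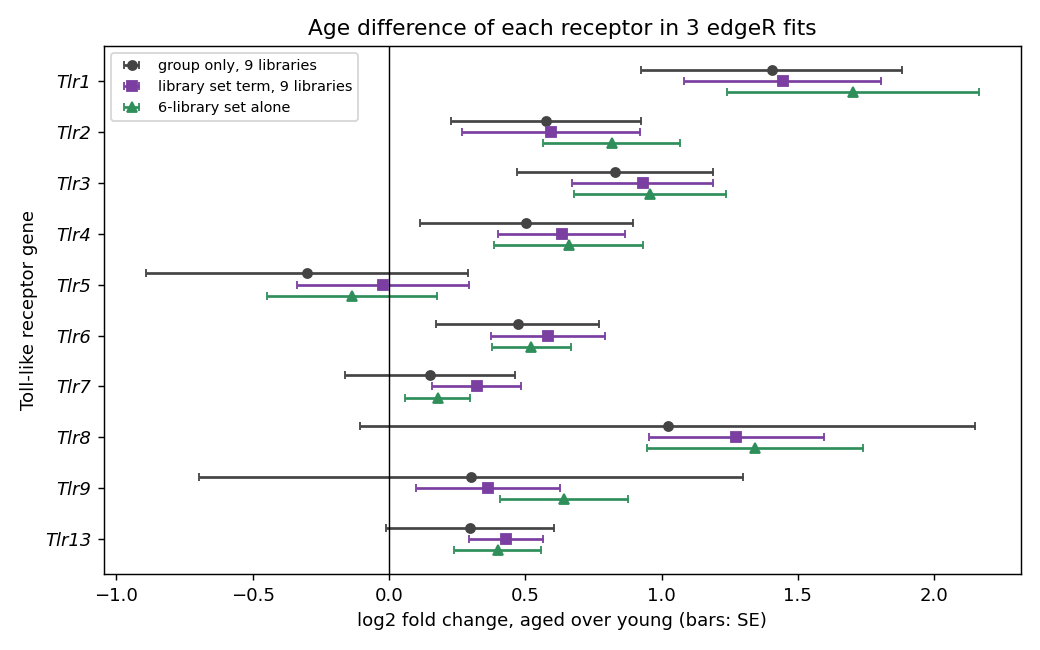
Log2 fold change, aged over young, of each receptor with its SE in 3 edgeR fits: age group alone, with the library set term, and within the 6-library set. Tlr1 lies at 1.40, 1.44 and 1.70, and Tlr8 at 1.02, 1.27 and 1.34 with a far shorter bar where the library set is accounted for.

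Within the 6-library set, aged 1, aged 2 and aged 5 lay above young 1 to 3 without overlap for 6 of the 10 receptors (Tlr1, Tlr2, Tlr3, Tlr6, Tlr8 and Tlr9), beside 13.7% of all genes. An unadjusted p under 0.05 on the higher side was reached there by 8 of 10, all but Tlr5 and Tlr7, beside 12.1% of all genes. None passed the adjustment, which called 0.012% of genes. The smallest adjusted p was that of Tlr1 (log2 fold change 1.70, SE 0.46, adjusted p = 0.0938 by edgeR), and Tlr8 had 1.34 (SE 0.40, adjusted p = 0.107 by edgeR). The 3-library set held 1 young library and is given without a test. Its log2 fold changes were above 0 for 9 receptors, among them 0.93 for Tlr1, 0.94 for Tlr3 and 1.03 for Tlr8, and −0.56 for Tlr9. Tlr1, Tlr3, Tlr6 and Tlr8 were higher without overlap within both sets, 4 of 10 beside 5.75% of all genes. The age difference was not shown to differ between the sets: the interaction test called 0 receptors and 0.0121% of genes, and its smallest adjusted p among receptors was 0.925 (edgeR). Setting aged 5 alone against young 1 to 3, all with Y-linked transcripts, gave log2 fold changes above 0 for all 10, from 0.14 for Tlr9 to 0.66 for Tlr6, with 0.44 for Tlr1 and 0.36 for Tlr8. That comparison has 1 aged library and no test. The share of all genes above 0 was not computed for it or for the 3-library set alone. The 10 and the 9 receptors above 0 there are therefore no result particular to the receptors. A fit over all 9 libraries with the library set and Y-linked expression as terms separates age from Y-linked expression only through aged 5. This fit gave 0.27 for Tlr1, 0.30 for Tlr3 and 0.31 for Tlr8, and its highest values were 0.71 for Tlr6 and 0.62 for Tlr13. It called 0 receptors. The lead of Tlr1 and Tlr8 therefore did not hold in either of these.

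The calls with the set term depended on single libraries. Without aged 3, edgeR called 3 receptors as higher: Tlr2 (adjusted p = 0.0442), Tlr3 (0.0377) and Tlr6 (0.0392), among 1633 genes or 9.91% of those tested. Without aged 5 it called Tlr1 (adjusted p = 0.0239), Tlr3 (0.0448) and Tlr8 (0.0232), among 712 genes or 4.36%. Leaving out any of the other 7 libraries gave 0 receptor calls.

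Tlr8 and Tlr9 differed more between the library sets than between the ages. In the 3-library set Tlr8 was at 1.59 and 1.35 CPM in aged 3 and aged 4 and at 0.747 CPM in young 4, and in the 6-library set it was at 22.6 to 72.1 CPM in aged and at 15.4 to 20.4 CPM in young libraries. The difference between the sets, averaged over the ages, was −4.53 on the log2 scale for Tlr8 and −3.89 for Tlr9, beside a median of −0.06 over all genes. Of the tested genes 0.374% lay below Tlr8 and 0.754% below Tlr9. Tlr5 followed with −1.90 (5.68%), and the other 7 receptors lay between −1.04 for Tlr4 and −0.34 for Tlr2. The sets were defined from these libraries, so these values are a description with no test. Marker genes of cells that carry the receptors went both ways. Their set differences ran from −1.30 to 0.74 for monocytes and macrophages, from −1.03 to 1.28 for B cells, from −1.15 to 1.62 for plasmacytoid dendritic cells and from −0.45 to 2.16 for neutrophils. Csf1r, the growth factor receptor of monocytes and macrophages, had a set difference of −1.30, with 85.1 and 78.4 CPM in aged 3 and aged 4 and 83.2 CPM in young 4. It was the lowest of the listed markers of these cells, whose median set difference was −0.12. What sets these libraries apart was not tested.

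**Figure D3:**
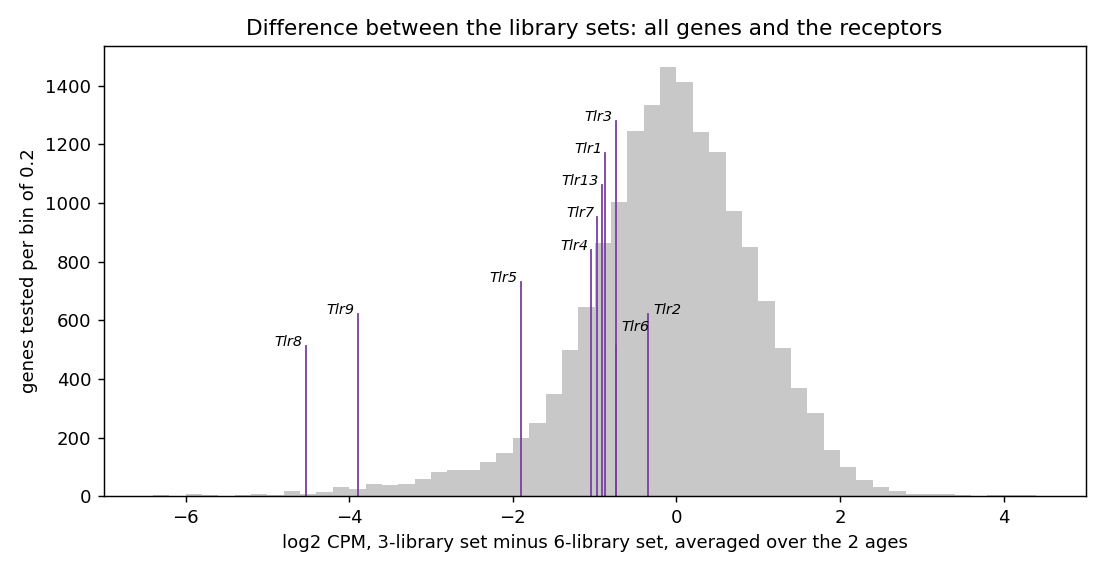
Histogram of the log2 CPM difference between the library sets (3-library minus 6-library, averaged over the ages) for all 16576 genes tested, in bins of 0.2, with purple lines at the receptors. Tlr8 (−4.53) and Tlr9 (−3.89) lie in the far left tail, and the lines of Tlr3 and Tlr6 fall on each other.

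Levels between receptors were compared only per length, in the deposited TPM values. Tlr8 averaged 20.9 ± 26.7 TPM in aged and 7.71 ± 5.18 TPM in young libraries, Tlr2 18.5 ± 12.7 and 10.8 ± 4.03, Tlr13 17.5 ± 11.2 and 13.02 ± 6.56, and Tlr1 14.7 ± 16.1 and 4.81 ± 2.23 (aged and young, SD, n = 5 and 4). The means of these 4 in aged libraries lay within their SDs, which hold differences between libraries. Receptors were not tested against each other within libraries. Tlr13 lay above Tlr1 in every library but aged 1. Tlr6, Tlr4, Tlr7 and Tlr9 followed at 8.40, 8.04, 6.38 and 5.33 TPM in aged libraries, with 5.77, 5.10, 5.31 and 3.88 TPM in young libraries. Tlr9 lay below Tlr6 in every library. Tlr5, at 2.26 ± 1.63 TPM in aged and 2.42 ± 1.49 TPM in young libraries, and Tlr3, at 2.07 ± 1.42 and 1.05 ± 0.579 TPM, had the lowest pooled means. Within the 3-library set, Tlr8 and Tlr9 held the lowest 2 ranks in aged 3, aged 4 and young 4. The first rank also changed with the library. Tlr13 was first in aged 3, aged 5 and young 1 to 3, Tlr8 in aged 1 and aged 2, and Tlr2 in aged 4 and young 4.

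Monocyte and macrophage markers differed in the same direction as the receptors. Of 10 markers, 9 had a log2 fold change above 0, with a median of 0.74, and none was at 0 in any library. Their summed level was 3283, 2739, 2171, 2195 and 2279 CPM in aged 1 to 5, against 1555, 1349, 1538 and 1530 CPM in young 1 to 4, without overlap. Per 1000 CPM of these markers, Tlr1 was at 20.0, 11.97, 7.25, 6.06 and 7.07 CPM in aged 1 to 5, against 7.70, 8.82, 7.51 and 5.19 in young 1 to 4, so that aged 1 and aged 2 stood above the rest and the others mixed. On this ratio 0 of the 10 receptors had aged libraries above young ones without overlap, beside 0.115% of all genes. The mean ratio was lower in aged bone for 7 of the 10, namely Tlr2, Tlr4, Tlr5, Tlr6, Tlr7, Tlr9 and Tlr13, and higher for Tlr1, Tlr3 and Tlr8. It was 22.5 in aged against 31.3 in young libraries for Tlr13, 6.72 against 10.2 for Tlr7, and 17.5 against 20.3 for Tlr2. Since the marker sum was higher in every aged library, a gene that rose less than the markers has a lower ratio there. The share of all genes with a lower ratio was not computed, so the 7 are no result particular to the receptors. Other lists of cells that carry the receptors overlapped between the ages. Their sums were 12575 to 62026 CPM in aged and 17458 to 43765 CPM in young libraries for neutrophils, 39.0 to 449.7 and 269 to 328 for B cells, 113 to 354 and 141 to 239 for plasmacytoid dendritic cells, and 41.6 to 267 and 51.5 to 64.0 for conventional dendritic cells. All 6 B cell markers had a log2 fold change below 0 (median −0.68, 0 called). Every aged library but aged 3 had a B cell sum below every young library. Markers above 0 were 7 of 9 for neutrophils (median 0.12), 3 of 6 for plasmacytoid dendritic cells (0.02) and 3 of 6 for conventional dendritic cells (−0.06). No gene of these lists was at 0 in any library. The part of cell makeup in the receptor values was not tested.

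**Figure D4:**
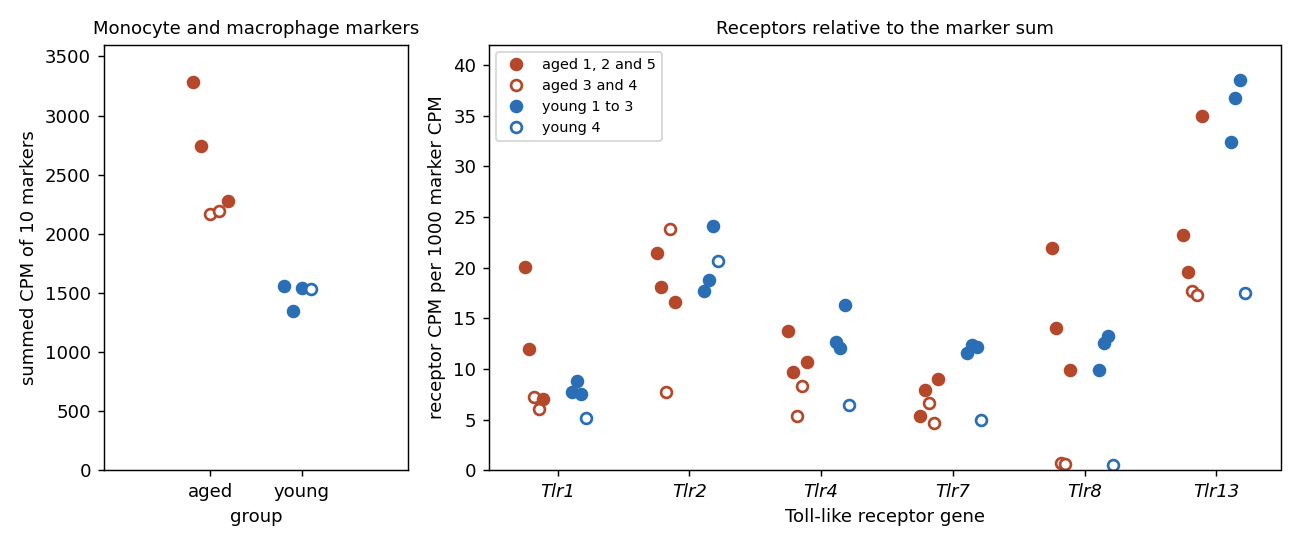
Left, summed CPM of 10 monocyte and macrophage markers per library, 2171 to 3283 in aged and 1349 to 1555 in young. Right, CPM of 6 receptors per 1000 CPM of those markers, aged left of young and open points for aged 3, aged 4 and young 4, where the ages overlap for each receptor shown.

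Genes that act with the receptors were read from 8 lists of 69 genes, of which 65 were tested and 50 had a log2 fold change above 0 (median 0.20). The group-only fit called 0 of them, with 8 higher and 1 lower at an unadjusted p under 0.05, beside 4.15% higher and 4.64% lower of all genes. Adaptors had 3 of 4 tested genes above 0, with a median of 0.45. Myd88, the adaptor of all members but Tlr3, was at 91.1 ± 28.1 CPM in aged and 60.3 ± 6.73 CPM in young libraries (SD, n = 5 and 4; adjusted p = 0.505 by edgeR), and Ticam1, the gene of TRIF, at 15.02 ± 4.39 and 11.0 ± 1.30 CPM (adjusted p = 0.716 by edgeR). Of 6 co-receptors 5 were above 0. Cd14, which hands lipopolysaccharide to Tlr4, was at 16.3 ± 10.8 CPM in aged and 5.21 ± 0.259 CPM in young libraries, with a log2 fold change of 1.65 (adjusted p = 0.320 by edgeR, and 0.0694 with the set term). Ly96, the gene of the Tlr4 partner MD-2, was at 4.42 ± 2.57 CPM in aged and 2.27 ± 1.06 CPM in young libraries (adjusted p = 0.682 by edgeR), and Cd36, a scavenger receptor, went the other way at 101 ± 27.2 and 135 ± 22.8 CPM (adjusted p = 0.716 by edgeR).

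Chaperones and proteases that fold and cleave the receptors had 7 of 8 genes above 0, with a median of 0.40. Hsp90b1, the chaperone gp96 needed for folding of most of them, was at 615, 903, 1344, 1435 and 540 CPM in aged 1 to 5, against 378, 371, 414 and 691 CPM in young 1 to 4. Only aged 1 and aged 5 fell below young 4, and within each set the ages did not overlap. Its log2 fold change was 1.06 (adjusted p = 0.403 by edgeR), and it was the 1 pathway gene called with the set term, where it rose by 0.88 (SE 0.17, adjusted p = 0.0407 by edgeR). On leaving out aged 3 that fit called 12 pathway genes (and 9.91% of all genes), on leaving out aged 5 it called 8 (and 4.36%), and on leaving out any of the other 7 libraries it called 0, so this call was then lost. Plasma cell markers, in cells that secrete much protein, had 5 of 5 genes above 0 with a median of 1.34, and their part in the Hsp90b1 value was not tested. Ctss, a cathepsin that cleaves endosomal receptors, was at 426 ± 123 CPM in aged and 215 ± 103 CPM in young libraries (adjusted p = 0.417 by edgeR, and 0.0835 with the set term).

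Signalling genes were split. Kinases and ligases had 8 of 15 genes above 0 with a median of 0.00, among them Ikbke at 78.4 ± 60.0 CPM in aged and 35.6 ± 11.7 CPM in young libraries (adjusted p = 0.628 by edgeR), and Tab3, a partner of the kinase TAK1, at 34.8 ± 11.5 and 52.5 ± 7.46 CPM (adjusted p = 0.525 by edgeR). All 6 transcription factors were above 0 with a median of 0.11, with Irf5 at 65.9 ± 9.54 CPM in aged and 53.7 ± 11.7 CPM in young libraries (adjusted p = 0.829 by edgeR). Of 7 inhibitors 6 were above 0, the exception being Tollip at 77.7 ± 13.4 CPM in aged and 91.9 ± 4.08 CPM in young libraries (adjusted p = 0.868 by edgeR). Other innate sensors had 7 of 10 above 0 with a median of 0.18.

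Induced cytokines had the highest list median, 1.04, with 8 of 9 tested genes above 0 of 12 in the list. Ifnb1, the gene of interferon beta, had 0 counts in every library. The chemokine genes Ccl3, Ccl4 and Cxcl10 averaged 6.25 ± 4.05, 5.85 ± 4.67 and 7.60 ± 4.78 CPM in aged libraries (SD, n = 5), against 1.58 ± 0.900, 1.15 ± 0.560 and 2.06 ± 0.733 CPM in young libraries (SD, n = 4). Their log2 fold changes were 2.00, 2.36 and 1.89, with edgeR adjusted p of 0.342, 0.355 and 0.342. DESeq2 called these 3 and Cd14 (adjusted p = 0.0332, 0.0310, 0.0387 and 0.0291), and no other pathway gene, beside 1.03% of all genes with a p-value. Tnf was at 9.24 ± 2.06 CPM in aged and 5.69 ± 0.630 CPM in young libraries (adjusted p = 0.385 by edgeR).

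**Figure D5:**
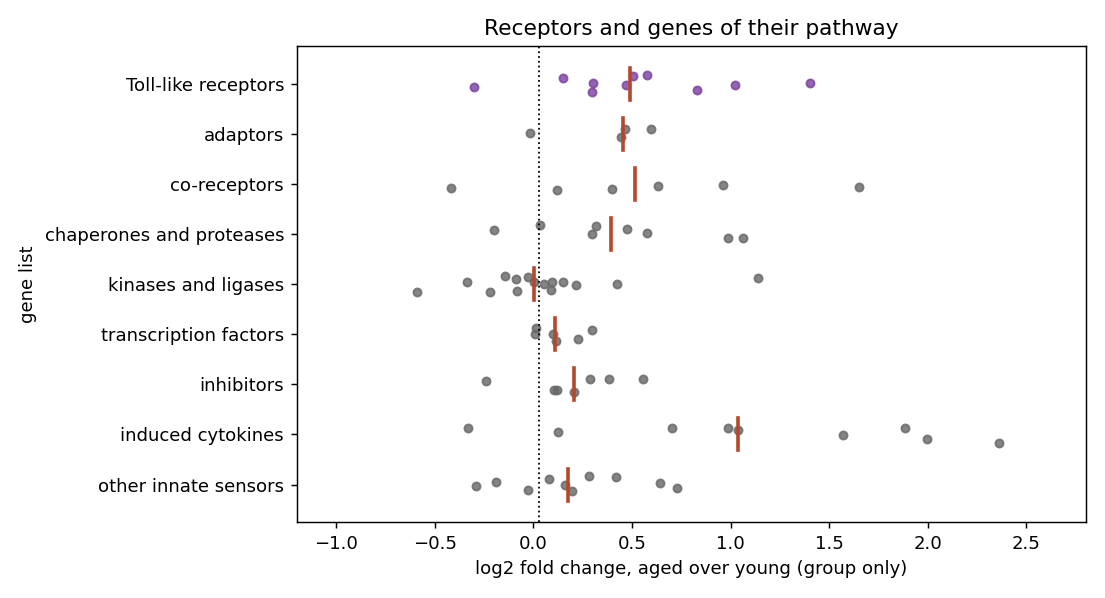
Group-only log2 fold change, aged over young, of each tested receptor and pathway gene (points), with red bars at list medians and a dotted line at the median of all genes, 0.03. The receptors (median 0.49) and induced cytokines (1.04) lie mostly right of the line, and kinases and ligases (0.00) on both sides.

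The genes most like a receptor across libraries were looked up among all tested genes of at least 5 CPM on average, with the receptors left out and no test. After the mean of each library set was subtracted, log2 CPM of Tlr1 correlated over the 9 libraries with Etv3, Rasgef1b and Fnbp1l, each at a Pearson r of 0.99, and Tlr8 with Norad (0.99), Ccdc50 (0.98) and Slc8a1 (0.98). Tlr1 and Tlr8 correlated with each other at 0.98, and at 0.95 without the 2 libraries farthest from the median. Of all pairs of receptors this was the highest over the 9 libraries. Tlr1 with the other receptors ran from −0.25 (Tlr5) to 0.88 (Tlr3). For Tlr2 the closest gene was Tm9sf2 (0.99), for Tlr3 Psmb9 (0.98), for Tlr4 Cbfb (0.99), for Tlr13 Ywhaz (0.95) and for Tlr9 Sox18 (0.95, and 0.80 without the 2 farthest). These values describe 9 libraries that share the age groups. The 2 libraries farthest from the median were aged 1 and aged 2 for Tlr1, Tlr3 and Tlr8, and other pairs for Tlr2, Tlr4, Tlr9 and Tlr13.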

How the data were processed

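Bulk RNA sequencing of 9 mice, 5 aged and 4 young, was taken from 1 table, with groups and ages from the labels. The authors deposited an estimated count for every gene in each library, without depth scaling, and TPM values beside it; each estimated count was rounded to a whole number here. The authors' deposited table also gave log2 fold changes, linear fold changes, p-values and adjusted p-values of their own comparison. Bowtie 0.12.2 and the build mm8 are named per the submitters' processing notes, with no role; which quantifier and annotation served is not given in the sources used here. GENCODE M21 held 52125 of the gene IDs.

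The test was the edgeR 4.0.16 quasi-likelihood F test in R 4.3.3, two-sided, with age group as the only term, TMM factors and filterByExpr (minimum count 10, total 15), and Benjamini-Hochberg adjustment over 16576 genes at 0.05. The biological coefficient of variation was 0.464, and 0.287 with the library set term. The SE of a log2 fold change is its size divided by the square root of F. Levels are CPM with TMM factors; logged values used a prior count of 2. Each adjusted p called edgeR comes from this test. The libraries held 19804883 to 23548594 counts each, and the model takes counting error apart from the fitted dispersion. No libraries were merged, since even the most alike pair (young 1 with young 3) gave a chi-square of 15.3 per gene.

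The members and lists were chosen with earlier results of these data known, and so was the library set, which rests on the ribosomal protein share. The text names all 10 members, up to 4 genes per pathway list with the smallest unadjusted p, and up to 3 genes most like a member (mean of at least 5 CPM). Csf1r, Itgax, Tlr11 and Tlr12 were named after their values were seen. Motifs were searched as letters on both strands of RefSeq promoters. Alternatives used DESeq2 1.42.0, limma 3.58.1 (voom), other scalings and filters, further terms and each library left out. Code was tested on simulated data. Python 3.11.15, pandas 2.3.3 and matplotlib 3.10.9 drew the figures. Reads and isoforms were not analysed here.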

Additional observations from a re-analysis of the deposited data

Results flagged for a closer look

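In young bone, young 4 was far below the other 3 young libraries for 6 receptors. The gap in log2 CPM was beyond Dixon's 95% critical value for 4 samples (0.829 of the log2 range). Its level was 7.94 CPM for Tlr1 (gap of 0.911 of the log2 range), 1.63 CPM for Tlr5 (0.912), 5.98 CPM for Tlr6 (0.876), 7.54 CPM for Tlr7 (0.875), 0.747 CPM for Tlr8 (0.911) and 1.36 CPM for Tlr9 (0.994). Gaps on the CPM scale itself were not tested. Chance marks about 1 in 20 such groups, and 20 groups of receptor values were looked at, which share libraries and are not independent. No aged library was marked. Young 4 belongs to the 3-library set, with aged 3 and aged 4, and had the highest hemoglobin share of all libraries (21.8%, against 6.98% to 9.15% in young 1 to 3). The part of that share in the receptor values was not tested.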

How the results depend on the processing

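In every alternative fit, 7 receptors (Tlr1, Tlr2, Tlr3, Tlr4, Tlr6, Tlr8 and Tlr13) kept a log2 fold change above 0, and Tlr5, Tlr7 and Tlr9 did not. The ratio to the monocyte and macrophage markers was not among these fits. On that ratio Tlr2, Tlr4, Tlr6 and Tlr13 had lower means in aged bone, and Tlr1, Tlr3 and Tlr8 higher ones. Of 324 receptor values under alternatives, 310 kept the direction of the group-only fit, 11 of them newly passing the threshold, and 14 turned, 3 of these in comparisons with a single library in an arm and no test. Tlr9 turned with limma-voom (log2 fold change −0.39), with the set and Y-linked terms (−0.0065) with a replicate block (−0.49) and in the 3-library set (−0.56), and ran from −0.22 to 0.61 on leaving out each library. Tlr7 ran from −0.07 to 0.29 there, being −0.071 without young 4. Tlr5 turned with the set and Y-linked terms (0.45), in the 3-library set (0.40) and between aged 5 and young 1 to 3 (0.35), and ran from −0.22 to 0.20 with the set term on leaving out each library, above 0 without aged 2 (0.20), aged 4 (0.047), young 1 (0.0054) and young 3 (0.033). On leaving out each library, the group-only values ran from 0.85 to 1.59 for Tlr1, 0.36 to 0.79 for Tlr2, 0.66 to 0.97 for Tlr3, 0.19 to 0.72 for Tlr4, 0.31 to 0.64 for Tlr6, 0.26 to 1.33 for Tlr8 and 0.11 to 0.43 for Tlr13. Genes called, 0 in the group-only fit, were 311 with DESeq2, 319 with the set term, 2 in the 6-library set, 5 with the set and Y-linked terms, 13 with the replicate block and 1485 with the set term and that block, and 0 to 6 on leaving out each library (0 to 1633 with the set term, with 1633 without aged 3 and 712 without aged 5). Receptors called were 5 with the set term and the block (Tlr1, Tlr2, Tlr3, Tlr4 and Tlr8), beside 1485 of the 16576 genes tested. They were 0 to 3 with the set term on leaving out each library. Pathway genes called were 4 with DESeq2, 1 with the set term, and 16 with the set term and the block, beside those same 1485 of 16576 genes. On leaving out each library from the set term fit they were 0 to 12 (8 without aged 5). The replicate numbers pair no samples by the labels: deviations of same-numbered libraries correlated at 0.456, 0.554, −0.387 and 0.739. The cause of these changes was not tested. The fit of the 3-library set has a single young library, assumed to vary like the others. At 11 to 26 counts for Tlr8 in the 3-library set, depth limits its precision there. The set term with the block and the sum of Tlr1 and Tlr6 were chosen after seeing the data.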

Other observations

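Tlr11 and Tlr12, further mouse genes of the family, were also measured. Tlr11 was at 0.156 to 1.16 CPM in aged and 0.136 to 0.549 CPM in young libraries (2 to 26 counts, edgeR adjusted p = 0.979), and Tlr12 at 1.81 to 5.97 CPM in aged and 4.17 to 5.40 CPM in young libraries (log2 fold change −0.02, edgeR adjusted p = 1.00). Itgax, an integrin gene of dendritic cells and some macrophages, was at 239, 155, 16.7, 12.2 and 20.5 CPM in aged 1 to 5, against 17.4, 16.7, 17.5 and 10.7 CPM in young 1 to 4 (log2 fold change 2.51, edgeR adjusted p = 0.433). The 2 libraries with high Itgax, aged 1 and aged 2, were also the highest in Tlr1 and Tlr8. Itgax is among the 6 listed conventional dendritic cell markers. Of these, 3 had a log2 fold change above 0 and 3 below, with a median of −0.06. Those below were Flt3 (−0.21), Zbtb46 (−0.61) and Cd209a (−0.74).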
